A study of Mus musculus with 12 samples.

Results

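The genes described here make cholesterol, sense it, take it up, move it within the cell or export it. They were listed by role, 31 in all, and a gene was followed when the array held a probe set carrying its symbol alone. Where several such probe sets existed, the set with the highest mean over the arrays was used. By this rule 28 of the 31 listed genes were measured, out of 19938 genes in the series. Acat2, Soat1 and Nr1h2 had no such probe set and were not analysed here. The measured genes comprised 6 enzymes of the mevalonate arm and 11 of the sterol arm, 5 regulators of the SREBP pathway, 3 genes of intracellular transport and 3 of efflux and its control by LXR. All 28 passed the filter on low values (a value over percentile 40 of the genes named on an array, for 2 arrays or more), as did 12988 of the 19938 genes.

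Labelled total RNA of R1 mouse embryonic stem cells (ESCs) was hybridised to 12 Affymetrix gene arrays. Every group came from cells grown with serum on feeder fibroblasts that mitomycin had stopped from dividing. Control lines had been infected with a scrambled sequence. In the others, which bear the names KD1 and KD2, Smarcd1 was knocked down, and its product BAF60a belongs to the SWI/SNF complexes that remodel chromatin. Undifferentiated ESCs, kept with leukemia inhibitory factor (LIF), gave 2 scrambled, 2 KD1 and 2 KD2 arrays. Cells differentiated for 4 days with 1 µM retinoic acid (RA) and without LIF gave 2 scrambled and 4 KD1 arrays. KD2 cells after RA were not analysed here. The labels speak of clones without giving their number, so each line may be a single clone, and other differences between lines cannot be told apart from the knockdown. Titles speak of biological replicates, but nothing states whether these were separate cultures. All p-values thus rest on array-to-array spread alone, some of which may be technical. In these bulk samples, fewer cells of a type and less RNA per cell cannot be told apart.

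Cholesterol is built from acetyl-CoA. The mevalonate arm leads from acetyl-CoA to the isoprenoid farnesyl pyrophosphate, and the sterol arm from there through squalene and lanosterol to cholesterol. When sterol is scarce, SCAP carries the SREBP transcription factors from the endoplasmic reticulum to the Golgi, where proteases release their active part, and the synthesis genes are transcribed. When sterol is plentiful, the INSIG proteins hold SCAP back. LXR, in contrast, is activated by oxidised sterols and switches on export pumps such as ABCA1 and ABCG1. Pluripotent cells divide quickly and need new membrane, and cholesterol made by the embryo also modifies Hedgehog proteins during patterning.

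Promoter sequence was looked at because most synthesis enzymes were lower in KD1 than in scrambled cells after RA in the results below. SREBP is known to act on synthesis genes with NF-Y, which binds CCAAT. RefSeq promoter windows (GRCm38.p6), from 250 bases before to 50 bases after a start, were at hand for 22 of the 28 measured genes, among them 14 of the 17 enzymes. CCAAT, on either strand, lay in a window of 14 of these 14 enzymes. It lay in a window of 5 of the 8 other measured genes, and in 42.3% of the 10310 tested genes with a window and 41.1% of all 27025. The sterol regulatory element, searched as TCACNCCAC on both strands, was found in Hmgcs1 alone of the 22, and in 1.42% of tested genes. The GC box GGGCGG, also sought on both strands, lay in 13 of the 14 enzymes, 7 of the 8 other measured genes and 69.1% of tested genes. These motifs can overlap by a few letters, which they did not do in Hmgcs1. A match is only a run of letters, and a missing match says only that these letters are not in the window. The enzymes with CCAAT included Ebp, which was higher in KD1 cells after RA, and Pmvk and Sc5d, which did not pass there. Insig1 and Insig2, also higher there, had CCAAT too. The part of these motifs in the results was not tested. The 250 bases before the start are given for 5 genes that passed after RA, picked by hand and not by a rank: Idi1 (chr13:8885356-8885605, + strand), Msmo1 (chr8:64733579-64733828, - strand), Cyp51 (chr5:4104698-4104947, - strand), Hmgcs1 (chr13:119690101-119690350, + strand) and Insig1 (chr5:28071162-28071411, + strand). All run 5′ to 3′ in the direction of the gene, with the sterol regulatory element and every CCAAT, read on either strand, in capitals.
Idi1: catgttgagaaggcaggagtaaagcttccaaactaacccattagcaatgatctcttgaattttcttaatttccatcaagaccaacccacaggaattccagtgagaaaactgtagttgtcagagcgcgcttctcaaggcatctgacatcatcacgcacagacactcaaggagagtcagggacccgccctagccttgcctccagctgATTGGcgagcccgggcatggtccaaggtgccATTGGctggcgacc
Msmo1: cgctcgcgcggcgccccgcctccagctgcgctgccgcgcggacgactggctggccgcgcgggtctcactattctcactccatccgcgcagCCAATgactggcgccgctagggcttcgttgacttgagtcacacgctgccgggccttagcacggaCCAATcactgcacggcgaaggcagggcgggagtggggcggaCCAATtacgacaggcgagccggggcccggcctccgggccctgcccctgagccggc
Cyp51: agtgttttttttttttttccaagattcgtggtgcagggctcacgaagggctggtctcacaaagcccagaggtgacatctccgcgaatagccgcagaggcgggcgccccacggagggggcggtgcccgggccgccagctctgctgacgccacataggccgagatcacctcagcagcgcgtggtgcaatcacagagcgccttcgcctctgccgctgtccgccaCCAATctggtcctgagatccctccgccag
Hmgcs1: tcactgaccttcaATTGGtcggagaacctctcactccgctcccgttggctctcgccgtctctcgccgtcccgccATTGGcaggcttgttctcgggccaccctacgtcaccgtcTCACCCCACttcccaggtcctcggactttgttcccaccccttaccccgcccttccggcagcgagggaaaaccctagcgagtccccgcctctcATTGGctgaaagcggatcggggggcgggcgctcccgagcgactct
Insig1: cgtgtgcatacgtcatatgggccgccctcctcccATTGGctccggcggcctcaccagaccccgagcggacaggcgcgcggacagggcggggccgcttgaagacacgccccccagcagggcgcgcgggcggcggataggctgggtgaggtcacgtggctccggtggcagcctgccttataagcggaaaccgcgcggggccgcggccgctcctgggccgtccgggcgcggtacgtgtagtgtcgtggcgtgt
Msmo1 and Hmgcs1 each held 3 CCAAT boxes in this stretch, Idi1 held 2, and Cyp51 and Insig1 held 1. In Hmgcs1 the sterol regulatory element began 137 bases before the start.

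The level of Smarcd1 serves as a check on the labels. After RA it read 8.84 and 8.64 in scrambled cells and between 6.36 and 6.61 on the 4 KD1 arrays. In ESCs it read 8.67 and 8.68 in scrambled, 7.75 and 7.78 in KD1 and 7.16 on KD2 replicate 2. At 8.56, near the scrambled level, the array labelled KD2 replicate 1 went against its label. The KD2 arrays were also less alike than any other pair within a group (r = 0.963 over the named genes, against 0.992 or more elsewhere). Directions for KD2 therefore rest partly on that array, and results are given with and without it. Pluripotency markers were high on all ESC arrays (mean log2 of 8 genes from 10.04 to 11.10) and lower after RA (6.13 to 7.33). Over all arrays the log2 values spanned 1.74 to 13.57, and precision is limited by how few arrays there are.

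The question of the first comparison is how cholesterol genes differed between KD1 and scrambled cells once both had differentiated. After RA, the KD1 arrays had lower levels of nearly the whole synthesis pathway: 14 of 17 enzymes were lower, 1 was higher and 2 did not pass. Both INSIG genes, the lysosomal exporter Npc1 and the efflux pump Abca1 were higher, while the SREBP genes themselves did not pass the test. Over all roles 5 of 28 genes were higher and 15 lower. A gene passed when its adjusted p was under 0.05 (limma, Benjamini-Hochberg over 12988 genes). By that rule 22.7% of all tested genes passed, 11.2% higher and 11.5% lower. The median change of the 17 enzymes was -1.15 on the log2 scale, against -0.02 over all tested genes.

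**Figure D1:**
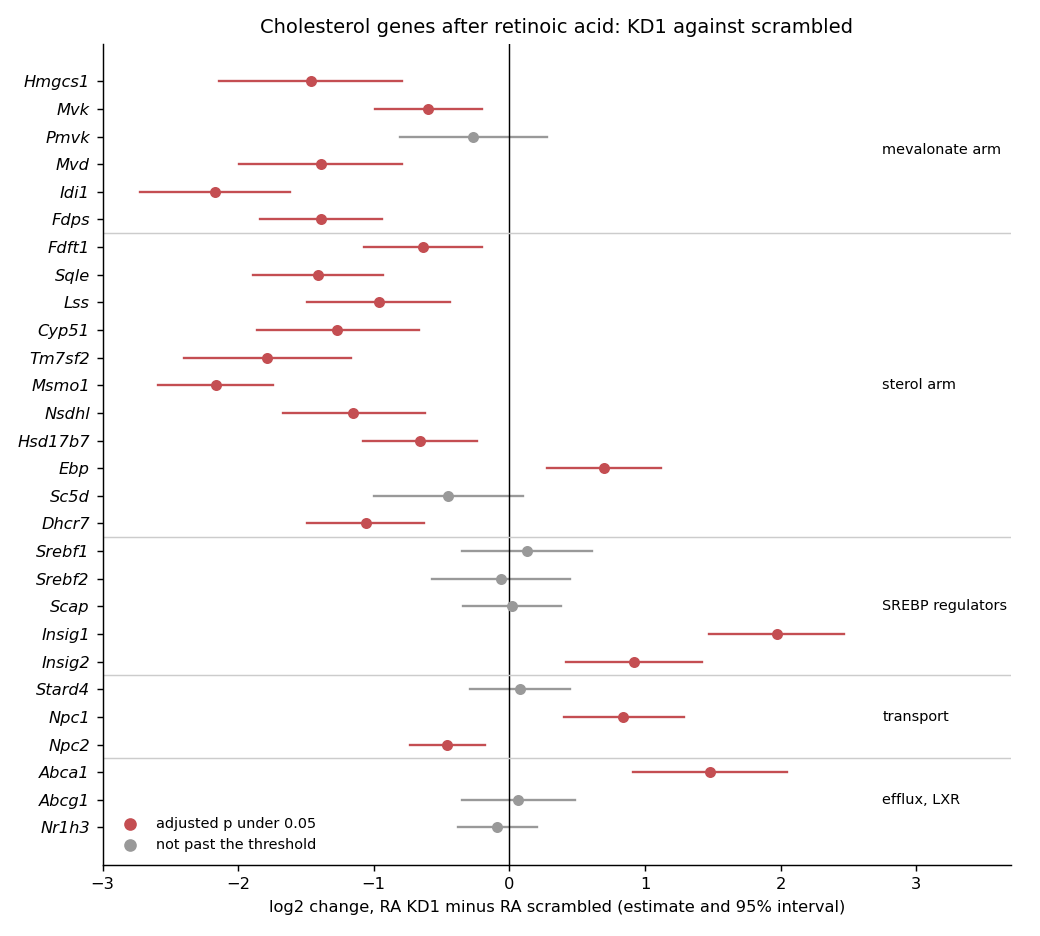
Change of each of the 28 genes after RA, as the log2 level in KD1 minus that in scrambled cells (4 and 2 arrays), with the limma estimate as a point and its 95% interval as a line. Red marks an adjusted p under 0.05. The enzymes lie left of 0 except Ebp, the SREBP genes Srebf1 and Srebf2 lie near 0, and Insig1, Insig2, Npc1 and Abca1 lie to the right.

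In the mevalonate arm, 5 of 6 genes were lower. Idi1, whose product interconverts the isopentenyl and dimethylallyl units of isoprenoids, read 9.41 and 8.81 in scrambled cells and 7.27, 6.99, 6.70 and 6.80 in KD1 cells. Every KD1 array lay well below both scrambled arrays, and the change was -2.17 ± 0.25 (SE, limma adjusted p = 9.43e-05), or 4.5-fold lower. A further Idi1 probe set, not used in the test, read 9.31 and 8.71 against 7.12, 6.91, 6.48 and 6.83. Hmgcs1, which makes HMG-CoA, read 10.57 and 10.48 in scrambled cells and 9.27, 9.06, 8.95 and 8.97 in KD1 cells. The groups did not overlap, and the change was -1.46 ± 0.31 (SE, limma adjusted p = 0.00504). Mvd, the decarboxylase that makes isopentenyl pyrophosphate, read 8.29 and 8.49 against 7.25, 7.10, 6.98 and 6.68, a change of -1.39 ± 0.27 (SE, limma adjusted p = 0.00337). Fdps, which joins isoprenoid units into farnesyl pyrophosphate, read 8.86 and 8.93 against 7.70, 7.44, 7.41 and 7.46, a change of -1.39 ± 0.21 (SE, limma adjusted p = 0.0005). KD1 replicate 1 was the highest of the KD1 arrays for Idi1, Hmgcs1, Mvd and Fdps, yet still below both scrambled arrays. The kinase Mvk was lower by a smaller step, from 6.68 and 6.50 to between 5.93 and 6.04 (-0.60 ± 0.18 SE, limma adjusted p = 0.0329). Pmvk, the kinase that follows it, did not pass (-0.27 ± 0.25 SE, limma adjusted p = 0.516), although its 4 KD1 values of 6.78 to 6.89 also lay below 7.10 and 7.14.

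In the sterol arm, 9 of 11 genes were lower and 1 was higher. The largest change was in Msmo1, a methylsterol oxidase that acts in removing methyl groups from lanosterol. It read 11.46 and 11.10 in scrambled cells and 9.53, 9.06, 8.95 and 8.94 in KD1 cells, a change of -2.16 ± 0.19 (SE, limma adjusted p = 1.4e-05), or 4.48-fold lower. Tm7sf2, a sterol reductase, read 7.99 and 7.73 against 6.54, 6.36, 5.54 and 5.84 (-1.79 ± 0.28 SE, limma adjusted p = 0.00079). Its KD1 arrays differed among themselves by up to 1 log2 unit, but none reached the scrambled level. Sqle, squalene epoxidase, read 9.21 and 8.94 against 7.99, 7.74, 7.43 and 7.49 (-1.41 ± 0.22 SE, limma adjusted p = 0.00071). Cyp51, the lanosterol demethylase, read 8.64 and 8.52 against 7.70, 7.17, 7.28 and 7.11 (-1.27 ± 0.27 SE, limma adjusted p = 0.00538). Nsdhl, which works after Msmo1 in the same demethylation, read 8.14 and 7.91 against 7.18, 7.04, 6.65 and 6.65 (-1.15 ± 0.24 SE, limma adjusted p = 0.00464). In each of these genes the KD1 and scrambled arrays were separate. Dhcr7, the reductase of the last step, read 7.54 and 7.49 against 6.64, 6.51, 6.26 and 6.40 (-1.06 ± 0.20 SE, limma adjusted p = 0.00228).

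Smaller decreases were seen in Lss, which folds squalene epoxide into lanosterol (8.62 and 8.34 against 7.34 to 7.72, change -0.96 ± 0.24 SE, limma adjusted p = 0.0128), and in Hsd17b7, a sterol ketone reductase (-0.66 ± 0.19 SE, limma adjusted p = 0.0279). Fdft1, squalene synthase and the entry to the arm, changed by -0.64 ± 0.20 (SE, limma adjusted p = 0.0371), with 9.87 and 9.47 against 8.76 to 9.21. Sc5d, a sterol desaturase, did not pass (-0.45 ± 0.25 SE, limma adjusted p = 0.251). Ebp, a sterol isomerase, ran the other way: it read 6.86 and 6.71 in scrambled cells and 7.55, 7.46, 7.49 and 7.45 in KD1 cells. All KD1 arrays were above both scrambled arrays, with a change of 0.70 ± 0.19 (SE, limma adjusted p = 0.0213). Array by array, each of the 4 KD1 arrays was below both scrambled arrays for 6 of 6 mevalonate genes and 10 of 11 sterol genes, Ebp being the exception on each. Over all tested genes, 41.0% to 45.0% lay below both scrambled arrays on each of these arrays, and 27.5% had all 4 below both.

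Among the SREBP regulators, 2 of 5 genes were higher and 0 lower. Insig1, whose product retains SCAP and whose gene is itself a known SREBP target, read 9.96 and 9.69 in scrambled cells and 11.46, 12.02, 11.98 and 11.72 in KD1 cells. The change was 1.97 ± 0.23 (SE, limma adjusted p = 9.68e-05), or 3.92-fold higher. Insig1 was thus higher on the arrays where the enzymes were lower. Insig2, the related retention protein, read 7.86 and 7.91 against 8.42, 8.46, 9.21 and 9.14 (0.92 ± 0.23 SE, limma adjusted p = 0.0122). Replicates 3 and 4 accounted for the higher part of that range. Srebf2, which encodes the SREBP most tied to cholesterol genes, read 9.39 and 9.39 against 9.68, 9.39, 9.13 and 9.13, so the groups overlapped (-0.06 ± 0.23 SE, limma adjusted p = 0.902). Srebf1 (0.13 ± 0.22 SE, limma adjusted p = 0.761) and Scap (0.02 ± 0.17 SE, limma adjusted p = 0.951) did not pass either. Their 95% intervals, from -0.35 to 0.61 for Srebf1, -0.57 to 0.45 for Srebf2 and -0.34 to 0.38 for Scap, leave room for moderate changes.

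Of the 3 transport genes, Npc1, which exports cholesterol from late endosomes and lysosomes, read 8.25 and 8.22 in scrambled cells and 9.02, 9.20, 9.15 and 8.95 in KD1 cells. The change was 0.84 ± 0.20 (SE, limma adjusted p = 0.0109). Its soluble partner Npc2 went the other way, from 8.48 and 8.52 to 8.11 or lower on all 4 KD1 arrays (-0.46 ± 0.13 SE, limma adjusted p = 0.023). Stard4, a cytosolic sterol carrier, overlapped between the groups (0.08 ± 0.17 SE, limma adjusted p = 0.815). Of the 3 efflux genes, Abca1, which loads cholesterol onto apolipoprotein particles, read 6.24 and 6.60 against 7.95, 8.14, 7.88 and 7.64. The KD1 arrays were all higher, by 1.48 ± 0.26 (SE, limma adjusted p = 0.00165), or 2.8-fold. Abcg1, a pump that passes cholesterol to mature HDL, was near 6 in both groups (5.91 and 6.00 against 5.74, 6.08, 6.14 and 6.12), with a change of 0.06 ± 0.19 (SE, limma adjusted p = 0.868). Nr1h3, which encodes LXR alpha, read 4.52 to 4.73 after RA, close to the filter on low values, and did not pass (-0.09 ± 0.13 SE, limma adjusted p = 0.715).

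**Figure D2:**
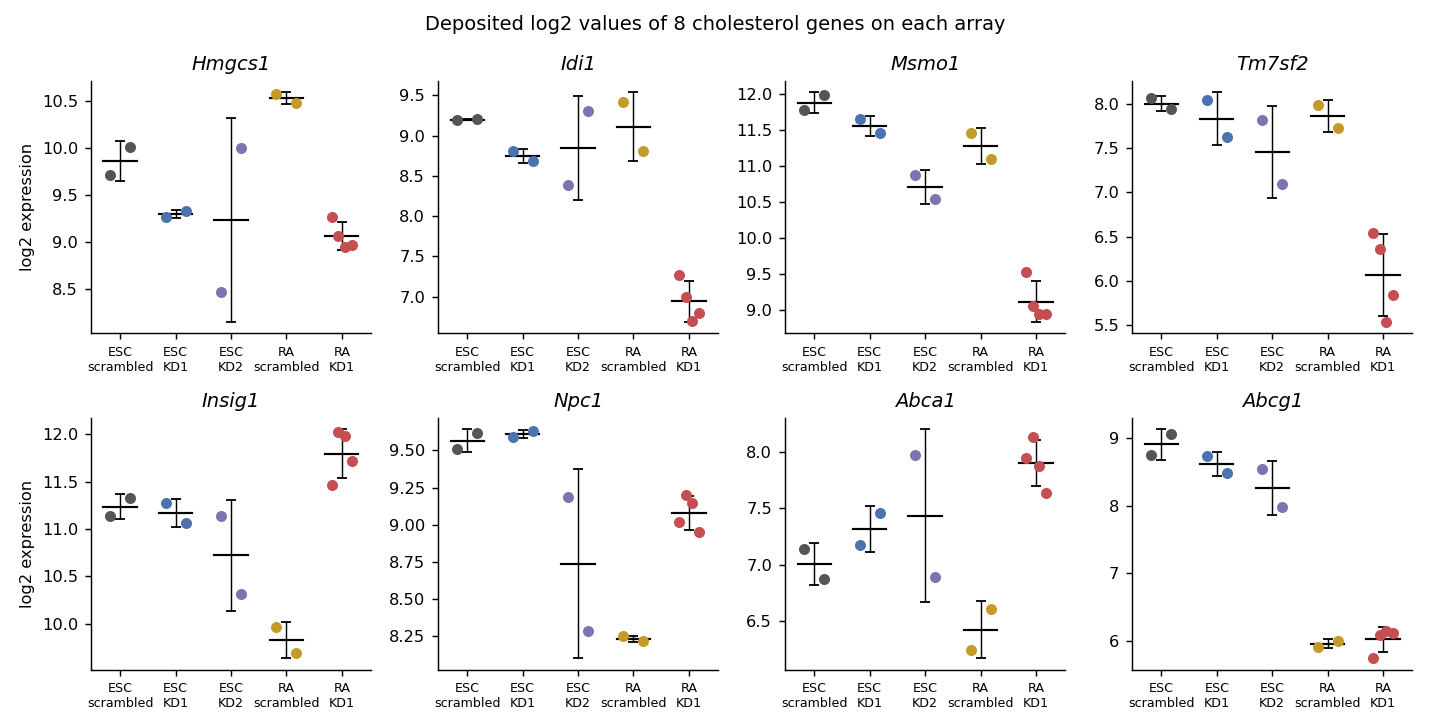
Deposited log2 values of 8 genes on each of the 12 arrays, by group; points are arrays, horizontal bars are group means and vertical bars are the SD. Each panel has its own log2 axis. After RA, Hmgcs1, Idi1, Msmo1 and Tm7sf2 are lower in KD1 than in scrambled cells, Insig1, Npc1 and Abca1 are higher, and Abcg1 is near 6 in both.

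These calls rested on 2 scrambled arrays. Without RA scrambled replicate 1, the count fell from 20 to 9, namely Mvd, Idi1, Fdps, Sqle, Tm7sf2, Msmo1, Dhcr7, Insig1 and Abca1, which also passed under each of the 23 alternatives tried. All-gene calls fell alongside, from 22.7% to 11.7%. The other 11 then had adjusted p from 0.0565 (Hmgcs1) to 0.344 (Fdft1), among them Cyp51 (0.0636), Nsdhl (0.0675), Npc1 (0.0783), Ebp (0.0893), Insig2 (0.101), Npc2 (0.117), Lss (0.145), Mvk (0.238) and Hsd17b7 (0.239). Without RA scrambled replicate 2 the count was 12 (12.2% of all tested genes), with Lss at 0.0504 and Ebp at 0.166. Leaving out single KD1 arrays ended the calls of Mvk (any of the 4), Fdft1 (replicate 2 or 3), Hsd17b7 (1 or 2) and Npc2 (4), with adjusted p from 0.0507 (Hsd17b7, without replicate 1) to 0.089 (Fdft1, without replicate 2). Of the 20 called estimates, 0 changed sign in these fits. Where the arrays of the groups compared do not overlap, leaving out an array cannot change the sign. Without either KD2 array 21 genes passed, Sc5d (adjusted p = 0.0249) in addition, against 37.1% of all tested genes (18.5% higher, 18.6% lower).

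Other gene groups moved on the same arrays. Extraembryonic endoderm markers (10 genes) had a mean log2 value of 6.52 to 6.66 in RA scrambled cells and 8.98 to 9.30 in RA KD1 cells. Of the 9 tested, 8 were higher in KD1. Gata4, a transcription factor of that lineage, read 6.47 and 6.30 against 10.45 to 11.05, and Afp, a later endoderm marker, stayed between 3.33 and 3.63 on all arrays and was not tested. The mean of the feeder fibroblast list (11 genes) went from 7.17 to 7.45 down to 6.27 to 6.68, with 4 of 9 tested genes lower. With RA in scrambled cells, however, 4 of these 9 rose and 2 fell. Acta2, for example, went from 9.38 and 9.84 to 12.07 and 12.30. After RA the mean of this list therefore cannot be read as the amount of feeders. The mean of the RA response genes (7 measured) went from 9.13 on both scrambled arrays to 8.02 to 8.54, with 5 of 7 lower. The RA response was not weaker in every gene. Cyp26a1 read 10.54 and 10.32 in scrambled cells and was higher on all 4 KD1 arrays, up to 12.27. Its change of 1.66 did not pass. In ESCs it read 8.9 on scrambled replicate 1 and 4.39 on replicate 2, a spread that enters the pooled error. Rarb overlapped between the groups (8.75 and 9.18 against 8.55 to 9.38). Of 6 macrophage markers, a cell type rich in Abca1, only Cd68 and Csf1r passed the filter, and the defining markers Ptprc and Adgre1 stayed at or below 3.47 on all arrays. The mean of the 6 went from 3.91 to 3.97 up to 4.10 to 4.24, and Cd68, a lysosomal protein gene, was higher. Genes of chromosome 8, which carries Msmo1 and Mvd, had a median change of -0.31 over 707 genes in this comparison. The median was 0.18 for chromosome 14, which carries Fdft1, and -0.00 for the X chromosome, which carries Nsdhl and Ebp. Over all tested genes it was -0.02. The part of these differences in the cholesterol results was not tested.

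The next comparisons set differentiated cells against ESCs in each line. RA, the absence of LIF and the 4 days of differentiation came together, so their effects cannot be told apart. A change with RA stands here for all of them. In scrambled cells, 10 of 28 genes fell and 0 rose, while 39.1% of all tested genes passed, 22.4% rising and 16.7% falling. In the mevalonate arm 0 of 6 passed in limma (0 also at an unadjusted p under 0.05), and 4 of 6 estimates were above 0 (Hmgcs1 0.66 ± 0.36 SE, Mvd 0.54 ± 0.32, Mvk 0.37 ± 0.21 and Fdps 0.26 ± 0.24). In the sterol arm all 11 estimates were below 0, and Ebp, Cyp51, Dhcr7 and Sqle fell. Whether the arms differed was not tested. Hmgcs1 read 9.71 and 10.01 in scrambled ESCs and 10.57 and 10.48 after RA. Dhcr7 read 8.78 and 8.90 before and 7.54 and 7.49 after (-1.33 ± 0.23 SE, limma adjusted p = 0.000795). Ebp read 8.42 and 7.88 before and 6.86 and 6.71 after (-1.37 ± 0.22 SE, limma adjusted p = 0.000546). Cyp51 (-1.36 ± 0.31 SE, limma adjusted p = 0.00499) and Sqle (-1.03 ± 0.25 SE, limma adjusted p = 0.00721) completed the group.

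Outside the enzymes, the pump gene Abcg1 had the largest change of the whole list. It read 8.75 and 9.07 in scrambled ESCs and 5.91 and 6.00 after RA, a fall of 7.72-fold (-2.95 ± 0.22 SE, limma adjusted p = 2.4e-06). Insig1 went from 11.14 and 11.33 to 9.96 and 9.69 (-1.41 ± 0.27 SE, limma adjusted p = 0.00149). Npc1 went from 9.51 and 9.62 to 8.25 and 8.22 (-1.33 ± 0.24 SE, limma adjusted p = 0.00096). Both SREBP genes fell, Srebf2 (-0.82 ± 0.27 SE, limma adjusted p = 0.0298) and Srebf1 (-0.79 ± 0.25 SE, limma adjusted p = 0.0281), as did Npc2 (-0.67 ± 0.15 SE, limma adjusted p = 0.00373). Abca1 read 7.14 and 6.87 before and 6.24 and 6.60 after and did not pass (-0.59 ± 0.30 SE, limma adjusted p = 0.146). Without ESC scrambled replicate 2 the count was 6 (28.9% of all tested genes), with Sqle (adjusted p = 0.0768), Cyp51 (0.0582), Srebf1 (0.132) and Srebf2 (0.131) no longer passing. Without ESC scrambled replicate 1 or RA scrambled replicate 1, Srebf1 (0.0722 and 0.183) and Srebf2 (0.0803 and 0.107) were lost, and without RA scrambled replicate 2, Sqle (0.0655) and Srebf2 (0.111). Without either KD2 array, which takes no part in the difference but widens the pooled error, 16 genes passed, 3 of them higher: Hmgcs1, Mvk and Mvd. All-gene calls then rose to 54.5% (31.7% higher, 22.8% lower).

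In KD1 cells, 16 of 28 genes fell and 2 rose with RA differentiation, where 50.8% of all tested genes passed (29.4% rising, 21.4% falling). Of the 17 enzymes 12 fell, 10 of them in the sterol arm, with a median change of -0.88 against 0.06 over all tested genes. Msmo1 read 11.66 and 11.46 in KD1 ESCs and 8.94 to 9.53 after RA, a fall of 5.43-fold (-2.44 ± 0.19 SE, limma adjusted p = 1.8e-06). Dhcr7 (-2.43 ± 0.20 SE, limma adjusted p = 2.1e-06), Cyp51 (-2.34 ± 0.27 SE, limma adjusted p = 2.78e-05) and Sqle (-2.22 ± 0.22 SE, limma adjusted p = 8.37e-06) fell by similar amounts. Idi1 went from 8.81 and 8.68 to between 6.70 and 7.27 (-1.80 ± 0.25 SE, limma adjusted p = 0.000115), and Tm7sf2 fell by 1.76 (SE 0.28, limma adjusted p = 0.000308). The smaller decreases in Fdps, Lss, Nsdhl, Fdft1, Ebp and Hsd17b7 ran from -1.02 to -0.55. Hmgcs1 did not pass here (9.27 and 9.33 before, 8.95 to 9.27 after, -0.24 ± 0.31 SE, limma adjusted p = 0.542).

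Abcg1 fell in KD1 cells too, from 8.74 and 8.49 to between 5.74 and 6.14 (-2.59 ± 0.19 SE, limma adjusted p = 9.18e-07). Srebf2 (-0.86 ± 0.23 SE), Npc2 (-0.82 ± 0.13) and Npc1 (-0.53 ± 0.20, limma adjusted p = 0.049) were lower as well. Insig1 rose, from 11.27 and 11.06 to between 11.46 and 12.02 (0.63 ± 0.23 SE, limma adjusted p = 0.0387), and Stard4 rose by 0.60 (SE 0.17, limma adjusted p = 0.0111). Abca1 read 7.17 and 7.46 before and 7.64 to 8.14 after, and did not pass (0.58 ± 0.26 SE, limma adjusted p = 0.0826). The scrambled and KD1 responses share no array. Without either KD2 array 23 genes passed, against 64% of all tested genes (36.6% higher, 27.4% lower). Without ESC KD1 replicate 1 the count was 11 and without ESC KD1 replicate 2 it was 12, with 36.9% and 34% of all tested genes passing. The first ended the calls of Lss (0.0643), Nsdhl (0.118), Hsd17b7 (0.237), Ebp (0.145), Srebf2 (0.075), Insig1 (0.0872) and Npc1 (0.152). The second ended those of Fdft1 (0.0742), Hsd17b7 (0.0583), Ebp (0.0824), Insig1 (0.223), Stard4 (0.22) and Npc1 (0.189). Insig1 and Npc1 were also lost without either RA scrambled array and without RA KD1 replicates 2, 3 or 4, at adjusted p from 0.0501 (Insig1) to 0.101 (Npc1). Npc1 was lost without RA KD1 replicate 1 (0.0916) or either scrambled ESC array (0.0634), Hsd17b7 without RA KD1 replicate 1 (0.0533) or 2 (0.0756), and Ebp without RA KD1 replicate 4 (0.0507).

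**Figure D3:**
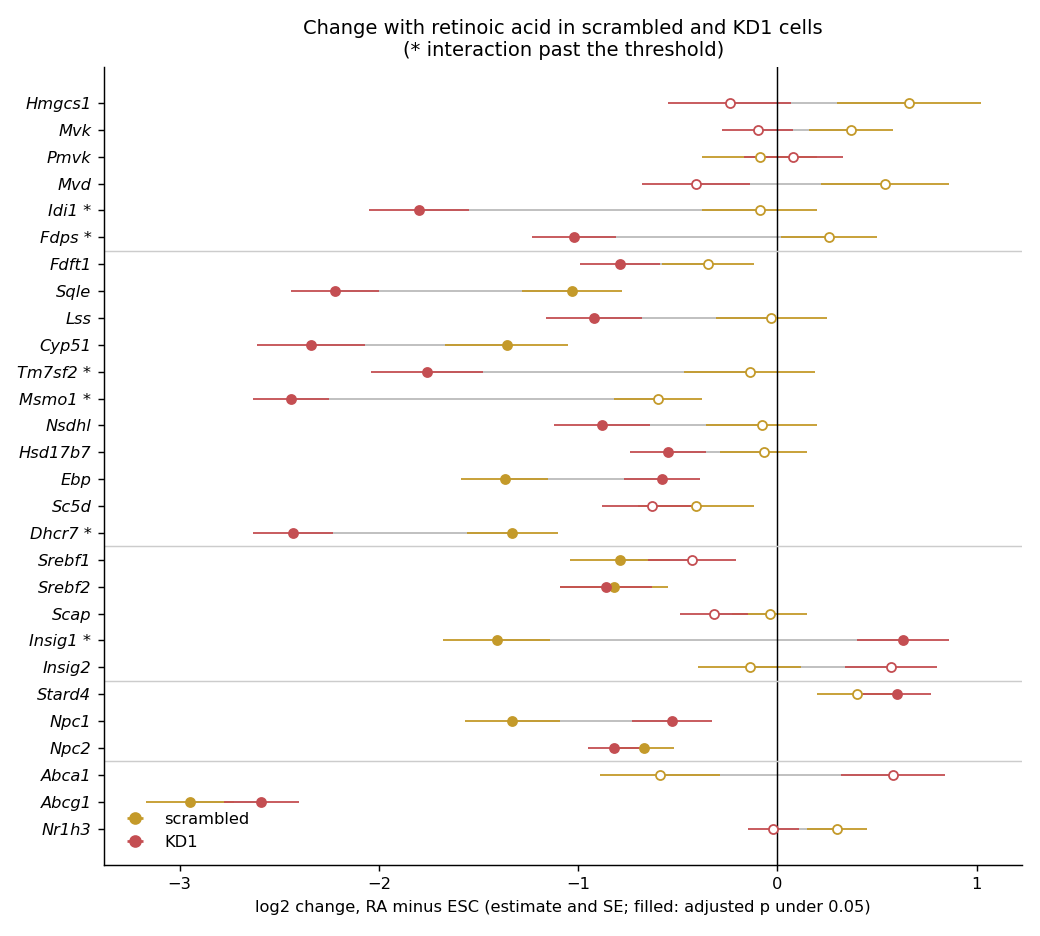
Change with RA of each gene in scrambled cells (gold) and KD1 cells (red), as the log2 level after RA minus that in ESCs, with the SE as a line; filled points have an adjusted p under 0.05 and a star marks an interaction past the threshold. Insig1 falls in scrambled and rises in KD1 cells, while Idi1, Msmo1, Tm7sf2, Fdps and Dhcr7 lie further left in KD1 cells.

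Whether the response to RA differed between the lines was tested as an interaction, which equals the KD1 effect after RA minus the KD1 effect in ESCs. It passed for 6 of 28 genes, 1 higher and 5 lower, against 7.88% of all tested genes (4.27% higher, 3.61% lower). Insig1 had the largest, 2.04 ± 0.35 (SE, limma adjusted p = 0.00488): it fell with RA in scrambled cells and rose in KD1 cells. Msmo1 fell further in KD1 than in scrambled cells (-1.84 ± 0.30 SE, limma adjusted p = 0.0032). In Idi1 the interaction was -1.72 ± 0.39 (SE, limma adjusted p = 0.0192), in Tm7sf2 -1.62 ± 0.43 (SE, limma adjusted p = 0.041), in Fdps -1.28 ± 0.31 (SE, limma adjusted p = 0.0282) and in Dhcr7 -1.10 ± 0.30 (SE, limma adjusted p = 0.0468). Sqle (-1.20 ± 0.34 SE, limma adjusted p = 0.0512), Abca1 (1.17 ± 0.40 SE, limma adjusted p = 0.108) and Ebp (0.78 ± 0.29 SE, limma adjusted p = 0.147) did not pass. For Abcg1, which fell in both lines, it was 0.35 with a 95% interval from -0.28 to 0.98. For Srebf2 it was -0.04, with an interval from -0.81 to 0.74.

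Without either KD2 array, 13 genes passed the interaction, against 18.5% of all tested genes (10.2% higher, 8.28% lower). The additional genes were Hmgcs1 (-0.90, adjusted p = 0.00859), Mvd (-0.94, 0.0235), Sqle (-1.20, 0.0139), Lss (-0.89, 0.0157), Ebp (0.78, 0.0276), Npc1 (0.80, 0.00556) and Abca1 (1.17, 0.00856). Insig1 and Msmo1 passed whichever array was left out. The others did not: the count was 2 without ESC scrambled replicate 1, either ESC KD1 array or RA scrambled replicate 1, 4 without ESC scrambled replicate 2, 3 without RA scrambled replicate 2, RA KD1 replicate 3 or RA KD1 replicate 4, and 4 without RA KD1 replicate 2. All-gene calls were 3.51% to 6.07% in these fits. Under these omissions Idi1 reached an adjusted p of 0.0993, Fdps 0.121, Tm7sf2 0.172 and Dhcr7 0.189. Dhcr7 was also lost without RA KD1 replicate 1 (0.0503).

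In undifferentiated ESCs, 0 of 28 genes passed between KD1 and scrambled in limma (0 also at an unadjusted p under 0.05), against 2.32% of all tested genes (0.909% higher, 1.41% lower). Of the 17 enzyme estimates 16 lay below 0, with a median of -0.22 against -0.00 over all tested genes, of which 6581 of 12988 lay below 0. That median moved to -0.42 without scrambled replicate 1, -0.12 without scrambled replicate 2, -0.32 without KD1 replicate 1 and -0.13 without KD1 replicate 2. Hmgcs1 read 9.71 and 10.01 in scrambled and 9.27 and 9.33 in KD1 ESCs (-0.56 ± 0.36 SE, limma adjusted p = 0.606). Idi1 read 9.19 and 9.20 against 8.81 and 8.68 (-0.45 ± 0.29 SE, limma adjusted p = 0.614). Both KD1 arrays lay below both scrambled arrays for Hmgcs1, Idi1, Mvd, Pmvk, Msmo1, Nsdhl and Sc5d, or 7 of 17 enzymes, against 27.2% of all tested genes. For Dhcr7, Ebp and Lss the groups overlapped, with estimates of 0.04, -0.08 and -0.08.

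Insig1 read 11.27 and 11.06 in KD1 ESCs against 11.14 and 11.33 in scrambled ESCs (-0.07 ± 0.27 SE, limma adjusted p = 0.974). Abca1 read 7.17 and 7.46 against 7.14 and 6.87 (0.31 ± 0.30 SE, limma adjusted p = 0.798), with both KD1 arrays above. KD1 replicate 2 was the lower of the KD1 arrays for Pmvk (6.42 against 7.13), Nsdhl (7.54 against 7.98) and Stard4 (7.46 against 8.06), and it also had the lower feeder fibroblast mean (5.66 against 6.54). The extraembryonic endoderm mean was 6.08 to 6.12 in KD1 ESCs and 5.01 to 5.11 in scrambled ESCs. The median change was -0.30 for chromosome 8, 0.01 for chromosome 14 and -0.09 for the X chromosome. The part of these differences was not tested. Without either KD2 array, Hmgcs1 was the only gene of the list to pass (adjusted p = 0.0375), with 8.14% of all tested genes passing (3.21% higher, 4.93% lower).

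KD2 ESCs had 8 of 28 genes lower and 0 higher than scrambled ESCs, against 10% of all tested genes (2.88% higher, 7.15% lower). Sterol arm genes made up 5 of the 8: Msmo1 (-1.17 ± 0.22 SE, limma adjusted p = 0.00781), Cyp51, Sqle, Ebp and Dhcr7. The others were Srebf1 (-0.91 ± 0.25 SE, limma adjusted p = 0.0439), Npc1 and Npc2. The mevalonate arm had 0 of 6 in limma (0 also at an unadjusted p under 0.05). The KD2 arrays disagreed gene by gene. The array labelled KD2 replicate 1 lay below both scrambled arrays for 6 of 6 mevalonate and 11 of 11 sterol genes. KD2 replicate 2 lay below both for 0 of 6 mevalonate genes, of which 4 were above both, but for 9 of 11 sterol genes. Over all tested genes the shares below both were 52.6% on replicate 1 and 35.9% on replicate 2, and the shares above both 32.8% and 49.2%. The all-gene median relative to the scrambled ESC mean was -0.13 on replicate 1 and 0.08 on replicate 2.

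Hmgcs1 read 8.47 on the array labelled KD2 replicate 1 and 10.00 on replicate 2, with 9.71 and 10.01 in scrambled ESCs. Mvd read 6.97 and 8.15 against 7.69 and 8.02, and Pmvk 6.72 and 7.71 against 7.13 and 7.28. In these genes replicate 1 was low and replicate 2 at or above the scrambled level. Cyp51 read 9.27 and 8.33 against 9.58 and 10.29, and Sc5d 8.80 and 7.68 against 9.07 and 9.28. There replicate 2 was the lower array. In the sterol arm Lss (7.69 and 8.71 against 8.37 and 8.66) and Fdft1 (9.73 and 10.10 against 9.79 and 10.24) also had replicate 1 below both scrambled arrays and replicate 2 not. Nsdhl (7.10 and 7.90 against 8.01 and 8.21) and Msmo1 (10.88 and 10.54 against 11.78 and 11.98) were low on both. Replicate 2 minus replicate 1 had a median of 0.95 over the mevalonate arm, -0.60 over the sterol arm and 0.13 over all tested genes. Abca1 differed the other way, at 7.98 on replicate 1 and 6.89 on replicate 2, against 7.14 and 6.87. Feeder fibroblast means were 5.90 and 6.30 on the KD2 arrays, against 6.71 to 6.73 in scrambled ESCs. Genes of chromosome 8, which carries Msmo1 and Mvd, had a median change of -0.32 between KD2 and scrambled ESCs. The median was -0.24 for the X chromosome, which carries Ebp and Nsdhl, and 0.27 for chromosome 14, which carries Fdft1. Over all tested genes it was -0.02. The part of these differences in the KD2 results was not tested.

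**Figure D4:**
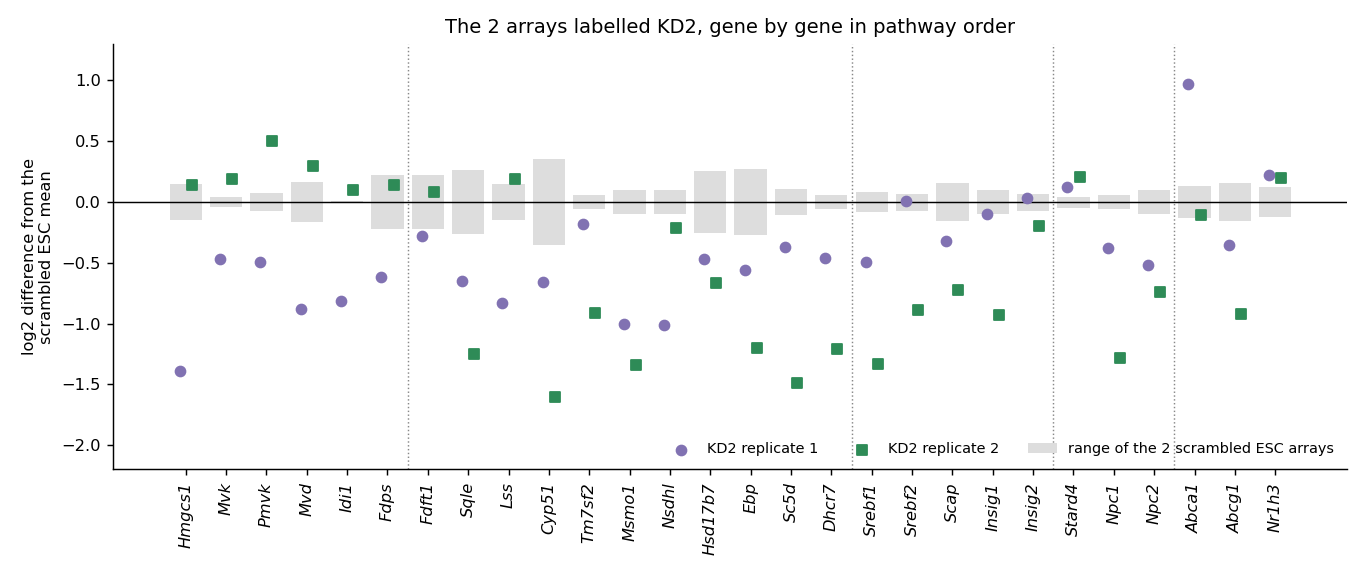
Log2 level of each gene on the array labelled KD2 replicate 1 (purple circles) and on KD2 replicate 2 (green squares) minus the scrambled ESC mean, in pathway order; grey boxes span the 2 scrambled ESC arrays and dotted lines divide the roles. In the mevalonate arm, left, replicate 1 lies below the boxes and replicate 2 within or above them, while most sterol arm genes lie below on both.

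Without the array labelled KD2 replicate 1, 13 genes were lower and 0 higher, with 4463 of 12988 genes (34.4%) passing. They were 6 sterol genes (Sqle, Cyp51, Msmo1, Ebp, Sc5d and Dhcr7), 4 regulators (Srebf1, Srebf2, Scap and Insig1), Npc1, Npc2 and Abcg1, and 0 mevalonate genes. Without KD2 replicate 2, 9 were lower and Abca1 was higher (0.97, adjusted p = 0.00981), with 3961 genes (30.5%) passing. These 9 were Hmgcs1 (-1.39, adjusted p = 0.000444), Mvk, Mvd, Idi1, Fdps, Lss, Nsdhl, Msmo1 and Npc2. Only Msmo1 and Npc2 were called with either array alone. A lone array is assumed to vary as the other groups do. The 8 calls also fell to 1 without scrambled ESC replicate 2, which left Ebp, and to between 3 and 5 without any other single array. The all-gene share was 2.56% without scrambled ESC replicate 2 and 6.82% to 8.43% in the others. With the KD2 and scrambled ESC arrays alone, limma called 0 of all 12988 genes, and so 0 of the 28, of which 7 had an unadjusted p under 0.05.

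KD2 against KD1 in ESCs gave 1 of 28, where 2.7% of all tested genes passed (0.508% higher, 2.19% lower). In all 66 genes were higher and 285 lower, or 48 and 108 after cyclic loess. Scap, the SREBP escort, read 7.88 on the array labelled KD2 replicate 1 and 7.47 on replicate 2, against 8.49 and 8.51 in KD1 (-0.82 ± 0.19 SE, limma adjusted p = 0.0468). Without the array labelled KD2 replicate 1, 16 genes passed, 13 lower and 3 higher, the latter Hmgcs1 (0.70), Pmvk (0.94) and Mvd (0.74), against 35% of all tested genes. Without KD2 replicate 2, 3 were lower, Hmgcs1 (-0.83), Lss (-0.76) and Scap (-0.62), against 16.1%. Hmgcs1 thus changed sign with the KD2 array used, and 0 of 28 passed without any other single array.

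The medians of the arms on each array are given as a description. Relative to the scrambled ESC mean, the median of the mevalonate arm was -0.22 and -0.52 in KD1 ESCs, -0.72 and 0.16 in KD2 ESCs, 0.33 and 0.29 in RA scrambled cells and -0.60, -0.78, -0.89 and -1.04 in RA KD1 cells. For the sterol arm the values were -0.13 and -0.32, -0.56 and -1.20, -0.26 and -0.57, and then -0.93, -1.25, -1.46 and -1.46. In RA scrambled cells 0 of 6 mevalonate and 4 of 11 sterol genes had passed against ESCs, so these medians rest largely on genes that did not pass, and the arms were not tested against each other. The median over all tested genes stayed between -0.13 and 0.08 on every array.

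**Figure D5:**
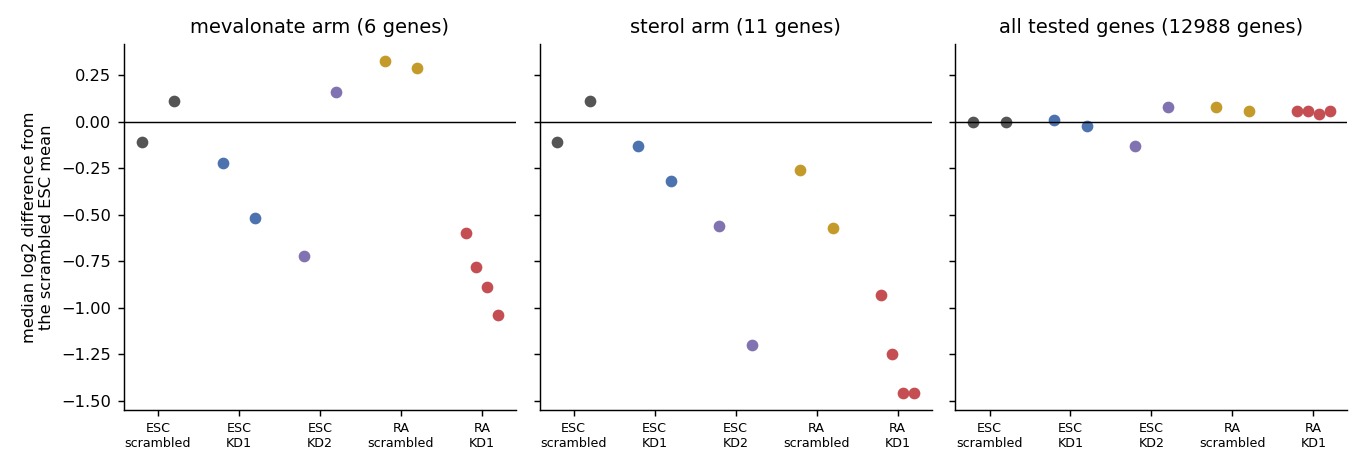
Median log2 difference from the scrambled ESC mean on each array, for the 6 mevalonate genes, the 11 sterol genes and all 12988 tested genes; each point is an array. In the sterol arm the 4 RA KD1 arrays (-0.93 to -1.46) and KD2 replicate 2 (-1.20) are the lowest, and the all-gene medians lie near 0.

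The 4 RA KD1 arrays were not alike. Replicates 3 and 4 both lay below replicates 1 and 2 for 12 of 28 genes, both above for 4, and overlapped for 12. Over all tested genes the shares were 31.6% below and 21.9% above. Tm7sf2 differed most (mean 5.69 against 6.45), followed by Insig2 in the other direction (9.17 against 8.44). Nsdhl (6.65 against 7.11), Srebf2 (9.13 against 9.54) and Sqle (7.46 against 7.87) were also lower. With replicates 1 and 2 alone, 10 of 28 genes passed against RA scrambled, and with 3 and 4 alone 14 did, against 13.7% and 16.3% of all tested genes. The pluripotency mean was 6.13 and 6.43 on replicates 1 and 2 and 7.33 and 7.09 on replicates 3 and 4. The labels give no batch for these arrays, and the part of that difference was not tested.

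Neighbouring pathways were read from lists drawn up alongside the members. Of 16 fatty acid genes under SREBP control, 7 were lower and 2 higher in KD1 than in scrambled cells after RA, with a median of -0.60 (11.2% of all tested genes were higher and 11.5% lower, which also holds beside the lists that follow). Fads2 and Fads1, desaturases of long-chain fatty acids, were lower. Fads2 read 10.28 and 10.23 against 8.99, 8.49, 7.75 and 7.96 (-1.96 ± 0.36 SE, limma adjusted p = 0.0022). Fads1 read 10.23 and 10.41 against 8.87, 8.56, 8.29 and 8.39 (-1.79 ± 0.23 SE, limma adjusted p = 0.000211). Lpin1, a phosphatidate phosphatase, read 6.67 and 6.97 against 8.66, 8.55, 8.99 and 8.62 (1.88 ± 0.18 SE, limma adjusted p = 2.35e-05), and Me1, the cytosolic malic enzyme, was higher by 1.33 ± 0.18 (SE, limma adjusted p = 0.000315). In ESCs the same list had 1 gene lower in KD1 (Mid1ip1, a regulator of acetyl-CoA carboxylase, -1.15 ± 0.24 SE, limma adjusted p = 0.0319) and 1 lower in KD2 (Fads1, -0.98 ± 0.27 SE, limma adjusted p = 0.0407), against 1.41% and 7.15% of all tested genes lower.

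By contrast, 0 of 12 tested other sterol and isoprenoid genes (17 listed) passed in limma after RA (3 at an unadjusted p under 0.05). Most, but not all, of the 12 serve dolichol, ubiquinone or prenylation. The median of the 12 was -0.05, with changes from -0.35 to 0.46. The difference between that list and the enzymes was not tested. Of 12 other genes of SREBP processing and degradation, 1 was lower, the ubiquitin ligase gene Rnf145 (8.47 and 8.36 against 7.59 to 7.81, -0.71 ± 0.22 SE, limma adjusted p = 0.0354). Of 15 tested other uptake, efflux and LXR target genes, 3 were higher and 3 lower. Cyp27a1, which makes an oxysterol from cholesterol, read 5.30 and 5.47 against 6.66, 6.38, 7.09 and 7.17 (1.44 ± 0.21 SE, limma adjusted p = 0.000487). Lrp1, an endocytic receptor of lipoproteins, read 8.51 and 9.06 against 7.43 to 7.77 (-1.18 ± 0.25 SE, limma adjusted p = 0.00467). Osbp, an oxysterol-binding carrier, read 7.89 and 8.07 against 8.67 to 8.93 (0.82 ± 0.14 SE, limma adjusted p = 0.00119).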

How the data were processed

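Per the submitters' processing notes, the deposited log2 values of the 12 arrays were made with RMA, of a version and with settings that no label or file header states. The authors' log2 values were used without further scaling. Of 35556 probe sets, 21789 carried 1 gene symbol in the platform annotation, 1621 several and 12146 were not listed. Entrez identifiers of 21698 of those with 1 symbol matched RefSeq, and 0 symbols changed. The probe set with the highest mean stood for a gene. Genes above percentile 40 (4.46 to 4.63 log2) on at least 2 arrays were tested.

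A group-means model over all 12 arrays was fitted with limma 3.58.1 (R 4.3.3) and 7 contrasts were taken, with Benjamini-Hochberg adjustment over 12988 genes and calls at an adjusted p under 0.05. In simulated data for the KD1 comparison after RA, run on 12988 genes, 68 of 100 genes changed by 1 log2 and 92 of 100 changed by 2 were recovered, with 11 false calls. There 12788 genes were unchanged, and each gene had the same spread in every group. In the data 22.7% of genes passed and the KD2 arrays were less alike, so these rates may not carry over. No pair of arrays held identical values. Members and gene lists were chosen with earlier results of these data known. Genes were named when called or by role, and neighbouring genes when called with the largest changes of their list. The alternatives are given in the closing section.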

Additional observations from a re-analysis of the deposited data

Results flagged for a closer look

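The RA KD1 group, with 4 arrays, was examined for arrays apart from the rest, gene by gene. Fdps had a highest array of 7.70, with a gap of 0.845 of the group's range, and Abcg1 a lowest array of 5.74, with a gap of 0.867. These were 2 of 28 groups examined, and chance gives about 1 in 20.

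The KD1 effect differed between differentiated cells and ESCs, by the interaction test, for 6 genes. The difference was 2.04 for Insig1, -1.84 for Msmo1, -1.72 for Idi1, -1.62 for Tm7sf2, -1.28 for Fdps and -1.10 for Dhcr7. The knockdown lines differed from each other in ESCs for Scap, by -0.82 (KD2 minus KD1), and that call includes the array labelled KD2 replicate 1, whose Smarcd1 value went against its label.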

How the results depend on the processing

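The 63 calls of single genes gave 1440 recomputed values over the alternatives, of which 1121 stayed past the threshold with the same direction, 319 did not and 0 reversed. The cause was not tested in any of these cases. Some alternatives, such as the stricter threshold, leave the estimate itself unchanged. Leaving out an array cannot reverse a difference between groups whose arrays do not overlap. The absence of reversals was thus largely fixed in advance. After RA, KD1 against scrambled gave 20 of 28 genes, 12 at an adjusted p under 0.01, 10 with RA KD1 replicates 1 and 2 only, and 9 to 21 with single arrays left out. In ESCs, KD1 against scrambled gave 0, or 1 without both KD2 arrays, and 0 to 1 with single arrays left out. KD2 against scrambled gave 8, or 5 with no filter on dim genes, 1 after cyclic loess, 0 with array weights, 0 with only the arrays compared, 1 at an adjusted p under 0.01, and 1 with either pair of RA KD1 arrays. Leaving out single arrays gave 1 to 13. KD2 against KD1 gave 1, and 0 after cyclic loess, median centring, array weights, only the arrays compared, an adjusted p under 0.01 or either pair of RA KD1 arrays, with 0 to 16 when single arrays were left out. RA against ESC gave 10 in scrambled cells (16 without both KD2 arrays, 6 to 16 with single arrays left out) and 18 in KD1 cells (11 with RA KD1 replicates 1 and 2 only, 11 to 23 with single arrays left out). The interaction gave 6, or 15 with array weights, 13 with only the arrays compared or without both KD2 arrays, 2 at an adjusted p under 0.01 or with RA KD1 replicates 1 and 2 only, and 2 to 13 with single arrays left out.

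With the replicate number as a block, the counts were 9 after RA, 2 for KD2 against scrambled, 0 for KD2 against KD1, 11 for RA in KD1 cells and 2 for the interaction. RA KD1 replicates 3 and 4 have no same-numbered partner, so in these fits the RA KD1 estimates come from replicates 1 and 2, which alone gave 10 after RA, and the effect of the block cannot be told apart from that. The samples share only a number: same-numbered arrays deviated together by r of -0.18 to 0.24. The KD2 arrays took weights of 0.137 each. The number of arrays limits the precision of all values.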
